A study of Mus musculus with 16 samples.

Results

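The guanylate-binding protein family was followed here through 8 genes, Gbp2, Gbp2b, Gbp3, Gbp5 and Gbp7 on chromosome 3 and Gbp4, Gbp8 and Gbp9 on chromosome 5. They were taken by symbol out of 57180 genes counted. All 8 were among the 17276 genes that passed the filter on low counts, although Gbp2b passed through A/J libraries alone. They were selected on these libraries, by their counts in the 4 groups, so counts, levels and fold changes of the 8 genes are descriptions and carry no test.

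RNA was sequenced in 16 libraries of whole lung from mouse embryos at E14.5 (embryonic day), which the series describes as male. The libraries fall into 4 groups of 4. Dams of strain C57BL/6J (B6) or strain A/J received either BMS493, an inverse agonist of the retinoic acid receptors as a class, or corn oil (control). Dosing was by mouth at 3.75 µg per g per day of BMS493, from E9.5 until the lungs were taken. The labels do not tie embryos to litters, so the spread between libraries may hold less than the full spread between litters. Lung markers were present in every group, with the summed level of 6 lung epithelium genes between 702.6 and 2070 CPM (gene counts per 1000000 of the effective library size).

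Guanylate-binding proteins are large GTPases related to dynamin. Interferons, above all interferon-gamma, induce them strongly in macrophages and in many other cells. They gather on the vacuoles and membranes that hold intracellular pathogens and promote inflammasome signalling. Whole lung is a mixture of cell types, and fewer cells of a type cannot be told apart from less RNA per cell.

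Between 15207539 and 24146224 fragments per library were assigned to genes, 71.7% to 76.9% of all fragments. A principal component analysis split the libraries by strain along its main axis (48.9% of variance), and replicate 3 of the B6 BMS493 group stood apart on the next axis. Fragments that mapped to several places made up 3.16% ± 0.156 of B6 and 3.90% ± 0.134 of A/J libraries (SD, n = 8 each). The reference genome is built from C57BL/6J, and A/J sequence was not used here. The part of mapping in the strain differences below was not tested.

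The chromosome 3 genes lie side by side on 1 strand, in the order Gbp5, Gbp7, Gbp3, Gbp2b and Gbp2. Promoter entries of RefSeq (GRCm38.p6, from 250 bases before to 50 bases after the start of transcription) covered these 5 genes in 6 entries, and the chromosome 5 members had none. The core of the interferon-stimulated response element, which IRF proteins bind, was searched on both strands as GAAA, any 2 bases and GAAA. It occurred in 5 of the 6 entries, at least once for each of the 5 genes, against 3.44% of 32851 promoters of 300 bases. The windows around these matches are shown because they are what the 5 neighbouring promoters have in common. All are given on the plus strand from 5′ to 3′, with the match in capitals, where it reads TTTC, 2 bases and TTTC because it lies on the opposite strand.
Gbp5: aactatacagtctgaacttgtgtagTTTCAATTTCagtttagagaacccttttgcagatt
Gbp7: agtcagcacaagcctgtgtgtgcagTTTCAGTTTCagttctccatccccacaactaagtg
Gbp3: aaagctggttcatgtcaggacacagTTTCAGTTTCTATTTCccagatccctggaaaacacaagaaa
Gbp2b: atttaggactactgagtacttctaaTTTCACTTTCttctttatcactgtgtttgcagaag
Gbp2: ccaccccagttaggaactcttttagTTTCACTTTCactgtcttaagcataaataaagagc
The windows span chr3:142496744-142496803 for Gbp5, chr3:142530258-142530317 for Gbp7, chr3:142559974-142560039 for Gbp3, chr3:142594685-142594744 for Gbp2b and chr3:142620579-142620638 for Gbp2. Counted from the start site, the match begins at -165 in Gbp5, -53 in Gbp7, -137 in Gbp2b and -59 in Gbp2. Gbp3 has overlapping matches that begin at -45 and -39. The matched letters are identical in Gbp2b and Gbp2, TTTCACTTTC, and identical in Gbp7 and in the first match of Gbp3, TTTCAGTTTC.

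The motif TTCNNNGAA, the core of the gamma-activated site of interferon-induced genes, occurred on either strand in 2 of the 6 entries, those of Gbp5 and Gbp7, against 8.30% of all promoters. A retinoic acid receptor half-site, AGGTCA, occurred in 0 of the 6 entries against 16.3% of all promoters. Direct repeats of AGGTCA with 2 or 5 bases between them occurred in 0 entries, against 0.00913% of promoters each. These counts describe letters in a short window.

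Gbp2 encodes a prenylated guanylate-binding protein that coats pathogen vacuoles in activated macrophages. In A/J controls its level was 9.501, 9.65, 10.8 and 11.9 CPM in replicates 1 to 4, and in A/J lungs with BMS493 it was 2.18, 1.41, 1.63 and 1.31 CPM. In B6 it was 2.01, 3.02, 2.42 and 2.49 CPM in controls and 1.77, 2.11, 1.54 and 1.49 CPM with BMS493. The 4 A/J control libraries were all high, and the other 12 libraries lay together near the level of B6. The mean in A/J was 6.41-fold lower with BMS493 than in controls, a log2 fold change of -2.67 (SE 0.19), and the groups did not overlap. In B6 the log2 fold change was -0.51 (SE 0.20), and the groups overlapped. Between the strains, A/J controls were 4.21-fold higher than B6 controls (log2 fold change 2.06, SE 0.18), while with BMS493 the log2 difference was -0.10 (SE 0.21).

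Gbp2b, the neighbour of Gbp2 and its close relative, encodes another prenylated member of the family. It was counted in A/J controls at 7.09, 7.27, 7.65 and 7.09 CPM, and with BMS493 at 1.02, 1.06, 0.837 and 1.51 CPM. In B6 it was at or near 0 in every library, with 3 counts in all 4 controls together and 0 counts in the 4 BMS493 libraries, where 0 allows up to 3 counts. In A/J the mean was 6.58-fold lower with BMS493, a log2 fold change of -2.72 (SE 0.24), and the groups did not overlap. The strains differed at both treatments. The ratio of A/J to B6 was 192 in controls, at a 95% Clopper-Pearson counting interval of 65.4 to 934 for 608 against 3 counts, and A/J was at least 27.75-fold higher with BMS493, for 94 counts against a floor of 3 over the group. Intervals and floors of this kind pool the 4 libraries of a group, so they leave out the spread between libraries. They cover counting error alone, and PCR copies cannot be told from separate molecules. No fold is given for BMS493 in B6, where both groups were at or under the floor, nor for its difference from the fold in A/J. Gbp2 and Gbp2b share few 50-base windows of their transcripts, 2.03% of the windows of Gbp2 and 1.84% of those of Gbp2b.

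**Figure D1:**
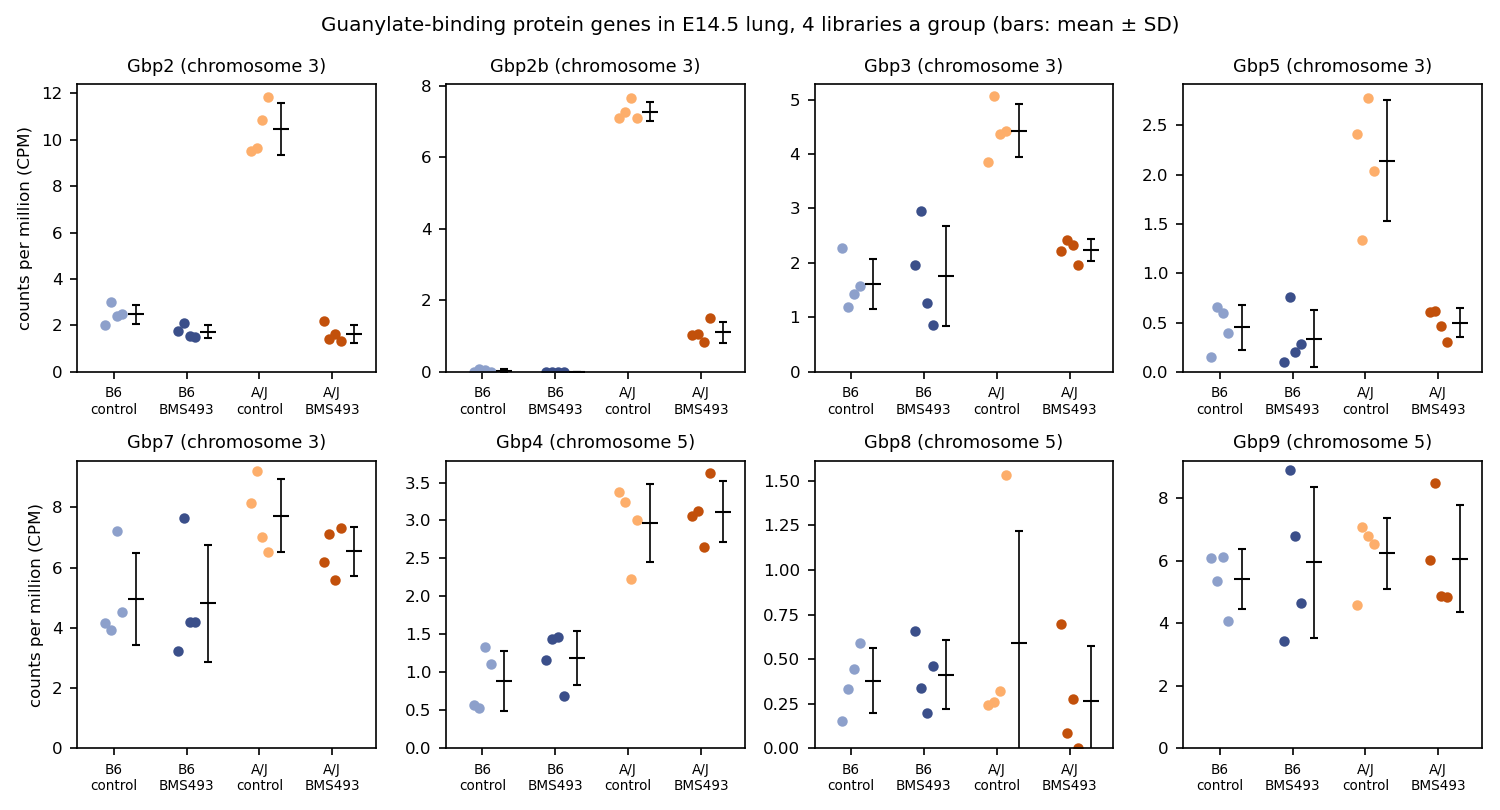
Levels of the 8 genes in CPM (y axis, from 0) in each library (points) of the 4 strain and treatment groups (x axis), with the mean and SD of each group beside the points. Gbp2 lay at 9.501 to 11.9 CPM in A/J controls and at or below 3.02 CPM in all other libraries, whereas Gbp4 was higher in A/J than in B6 at both treatments.

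Gbp5 encodes a family member that promotes assembly of the NLRP3 inflammasome. Its level in A/J was 2.41, 1.34, 2.78 and 2.04 CPM in controls and 0.603, 0.616, 0.465 and 0.302 CPM with BMS493. In B6 it was 0.155, 0.661, 0.593 and 0.393 CPM in controls and 0.101, 0.761, 0.200 and 0.287 CPM with BMS493. Again the 4 A/J controls were the highest of the 16 libraries. The mean in A/J was 4.32-fold lower with BMS493 (log2 fold change -2.09, SE 0.42), and A/J controls were 4.76-fold higher than B6 controls (log2 fold change 2.20, SE 0.43). Neither pair of groups overlapped. With BMS493 the strains differed by 0.48 (SE 0.51) on the log2 scale and overlapped, and the difference was 1.35 without B6 BMS493 replicate 2. These levels rest on few reads, 178 counts over the 4 A/J controls and 43 over the 4 A/J BMS493 libraries. Gbp5 left the called genes (adjusted p under 0.05 over all genes tested, edgeR quasi-likelihood test) without A/J control replicate 1 or 3 (log2 fold changes -2.03 and -1.94) or without A/J BMS493 replicate 3 or 4 (-2.05 and -1.92).

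Gbp3 encodes a member of the chromosome 3 cluster that also reaches pathogen vacuoles. Its level in A/J was 3.86, 5.06, 4.37 and 4.42 CPM in controls and 2.23, 2.42, 2.33 and 1.96 CPM with BMS493. In B6 it was 2.27, 1.20, 1.43 and 1.57 CPM in controls and 1.97, 2.96, 1.27 and 0.861 CPM with BMS493. The A/J groups did not overlap, with a mean 1.98-fold lower with BMS493 (log2 fold change -0.99, SE 0.26). Gbp3 was not among the genes called in this comparison, but it was with DESeq2 (-0.99), without the filter on low counts (-0.98), with only the 8 A/J libraries in the fit (-0.99), and without B6 BMS493 replicate 2 or 4 (-0.99 in both). A/J controls were 2.74-fold higher than B6 controls (log2 fold change 1.46, SE 0.27), with no overlap.

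Gbp7, which encodes a member linked to the assembly of NADPH oxidase on phagosomes, was among the most counted of the family. Its levels in controls were 8.15, 9.22, 7.01 and 6.52 CPM in A/J and 4.18, 3.92, 7.22 and 4.52 CPM in B6. With BMS493 they were 6.17, 7.13, 5.58 and 7.30 CPM in A/J and 3.23, 7.65, 4.20 and 4.19 CPM in B6. All groups overlapped. The log2 fold change with BMS493 was -0.24 (SE 0.21) in A/J and -0.02 (SE 0.23) in B6, and A/J against B6 controls gave 0.64 (SE 0.22). The last difference was called in 3 of 16 fits that each left out 1 library (range 0.54 to 0.88). It was not called with a term for library numbers 1 to 8 against 9 to 16 (0.64), nor with the first (0.64) or second (0.67) stranded column. With BMS493 the strains differed by 0.42 (SE 0.22) in Gbp7, which was called in 1 of the 16, without B6 BMS493 replicate 2 (0.76). Of the exon bases of Gbp7, 11.3% lie in exons of Gm43802, so its count can include reads of that gene.

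Among the chromosome 5 genes, Gbp4, whose product has been tied to ASC-dependent inflammasome signalling, had levels of 3.38, 3.25, 2.23 and 3.01 CPM in A/J controls. After BMS493 the A/J levels were 3.06, 3.12, 2.65 and 3.63 CPM. In B6 the levels were 0.567, 0.537, 1.34 and 1.11 CPM in controls and 1.16, 1.44, 1.47 and 0.689 CPM with BMS493. Every A/J library was above every B6 library at either treatment. The log2 fold change of A/J against B6 was 1.76 (SE 0.29) in controls and 1.38 (SE 0.28) with BMS493. That of BMS493 was 0.07 (SE 0.25) in A/J and 0.45 (SE 0.31) in B6, with overlap in both strains.

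Gbp9, the most counted gene of the chromosome 5 cluster, did not separate any pair of groups. Its lowest, median and highest levels were 4.58, 6.65 and 7.10 CPM in A/J controls and, after BMS493, 4.84, 5.46 and 8.49 CPM. In B6 they were 4.07, 5.73 and 6.13 CPM in controls and 3.43, 5.73 and 8.92 CPM with BMS493. Its 4 log2 fold changes lay between -0.04 and 0.20. Gbp8, a less studied member, was near the limit of detection at 0 to 27 counts per library. Its means were 0.588 ± 0.630 CPM in A/J controls, 0.266 ± 0.309 in treated A/J, 0.380 ± 0.184 in B6 controls and 0.414 ± 0.193 in B6 with BMS493 (SD, n = 4 each). Its groups overlapped in every comparison. Replicate 4 held 27 of the 45 counts in A/J controls, where the coefficient of variation was 107% and counting error alone gives 29.8%.

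Levels of different genes were compared per kb of exon (GENCODE M21). In A/J controls Gbp2 came first at 4.16 ± 0.439 CPM per kb, and Gbp2b second at 2.58 ± 0.0937 (SD, n = 4 each). Gbp7 at 1.38 ± 0.215, Gbp3 at 1.36 ± 0.151 and Gbp9 at 1.21 ± 0.219 followed and did not differ beyond their spread. Gbp4 (0.396 ± 0.0684), Gbp5 (0.323 ± 0.0924) and Gbp8 (0.171 ± 0.183) were lowest, and neighbours in that order were again within their spread. With BMS493 the first places in A/J were held by Gbp9 (1.17 ± 0.331) and Gbp7 (1.17 ± 0.145), and Gbp2 was at 0.648 ± 0.155 beside Gbp3 at 0.684 ± 0.0601. In B6 controls Gbp9 (1.05 ± 0.186), Gbp2 (0.988 ± 0.164) and Gbp7 (0.884 ± 0.272) led without a difference beyond their spread, and in B6 with BMS493 the leading genes were Gbp9 (1.15 ± 0.468) and Gbp7 (0.859 ± 0.346).

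Summed over the 8 genes, the level per kb was 11.6 ± 0.621 CPM in A/J controls, 4.63 ± 0.457 in treated A/J, 3.72 ± 0.383 in B6 controls and 3.57 ± 1.14 in B6 with BMS493 (SD, n = 4 each). Gbp2 and Gbp2b together made up 58.2% ± 2.29 of the A/J control sum and 22.6% ± 3.03 after BMS493. In B6 they made up 27.1% ± 5.52 in controls and 19.96% ± 3.57 with BMS493. Gbp4 made up 3.44% ± 0.707 of the A/J control sum and 9.02% ± 1.30 after BMS493, while its own level was 2.97 ± 0.512 CPM in controls and 3.12 ± 0.400 CPM with BMS493.

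**Figure D2:**
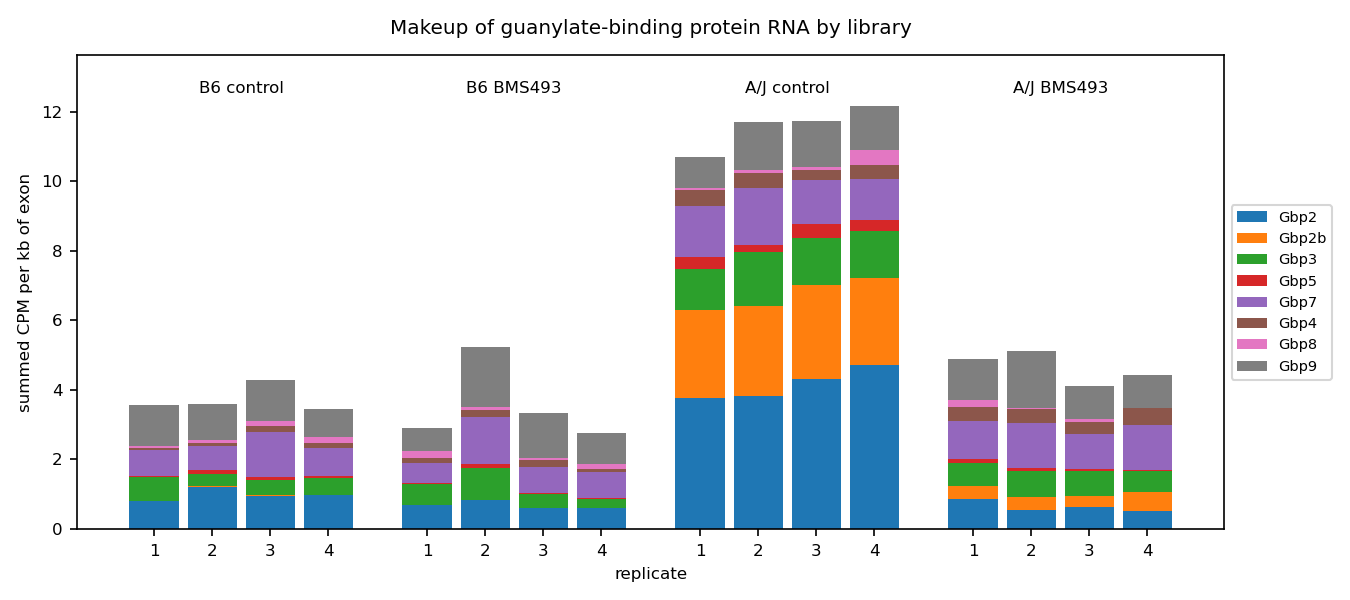
Summed level of the 8 genes in CPM per kb of exon (y axis, from 0) in each library (bars, replicates 1 to 4 of each group along the x axis), with 1 colour per gene. The A/J control bars reach 10.7 to 12.2 and the other 12 bars 2.77 to 5.24, and most of the gap is the Gbp2 and Gbp2b segments.

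Counted over the family, BMS493 in A/J left 3 of 8 genes called lower (Gbp2, Gbp2b and Gbp5), where 0.423% of all genes tested were called lower. The A/J groups did not overlap for 4 of 8 (those 3 and Gbp3, all lower), against 2.84% of all genes. In B6, 0 of 8 genes were called by edgeR, where 0.423% of all genes were called in either direction, and 0 of 8 were without overlap, against 4.71%. Gbp2 had an unadjusted p under 0.05 in B6 with edgeR, Gbp2b is not read there because it held 3 counts, and DESeq2 called 0. The median log2 fold change with BMS493 was -1.02 over the 8 genes in A/J, where the median of all genes tested was -0.002. Over the 7 genes other than Gbp2b in B6 it was 0.14, beside 0.007 for all genes. By chromosome, the median in A/J was -2.09 over the 5 genes on chromosome 3 and -0.04 over the 3 on chromosome 5.

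For A/J against B6 in controls, 6 of 8 genes were called higher (Gbp2, Gbp2b, Gbp3, Gbp4, Gbp5 and Gbp7), where 7.04% of all genes tested were called higher. The groups did not overlap for 5 of 8, all but Gbp7 of these, against 10.7% of all genes. The median log2 fold change was 1.61 over the 8 genes and 0.008 over all genes. With BMS493, 2 of 8 genes were called higher in A/J, Gbp2b and Gbp4, where 7.93% of all genes were called higher. The same 2 were without overlap, against 8.74% of all genes. Since these comparisons chose the genes, nothing is read from the counts. The comparisons share libraries: A/J controls enter both the BMS493 contrast in A/J and the strain contrast in controls.

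The difference between the strains in the BMS493 fold change (A/J minus B6) was -2.16 (SE 0.28) for Gbp2 on the log2 scale. It was -1.73 (SE 0.68) for Gbp5, -1.16 (SE 0.38) for Gbp3 and -1.23 (SE 1.01) for Gbp8. Single libraries moved these values. Without B6 BMS493 replicate 2 the difference was -0.86 for Gbp5 and -0.77 for Gbp3, which was -0.56 and -1.68 with the first and second stranded column. For Gbp8 it was -0.20 without A/J control replicate 4 and -2.30 without A/J BMS493 replicate 1. For Gbp4, Gbp7 and Gbp9 it was -0.38 (SE 0.40), -0.22 (SE 0.31) and -0.18 (SE 0.34). Among the 8 genes Gbp2 alone was called, where 0.00579% of all genes tested were.

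**Figure D3:**
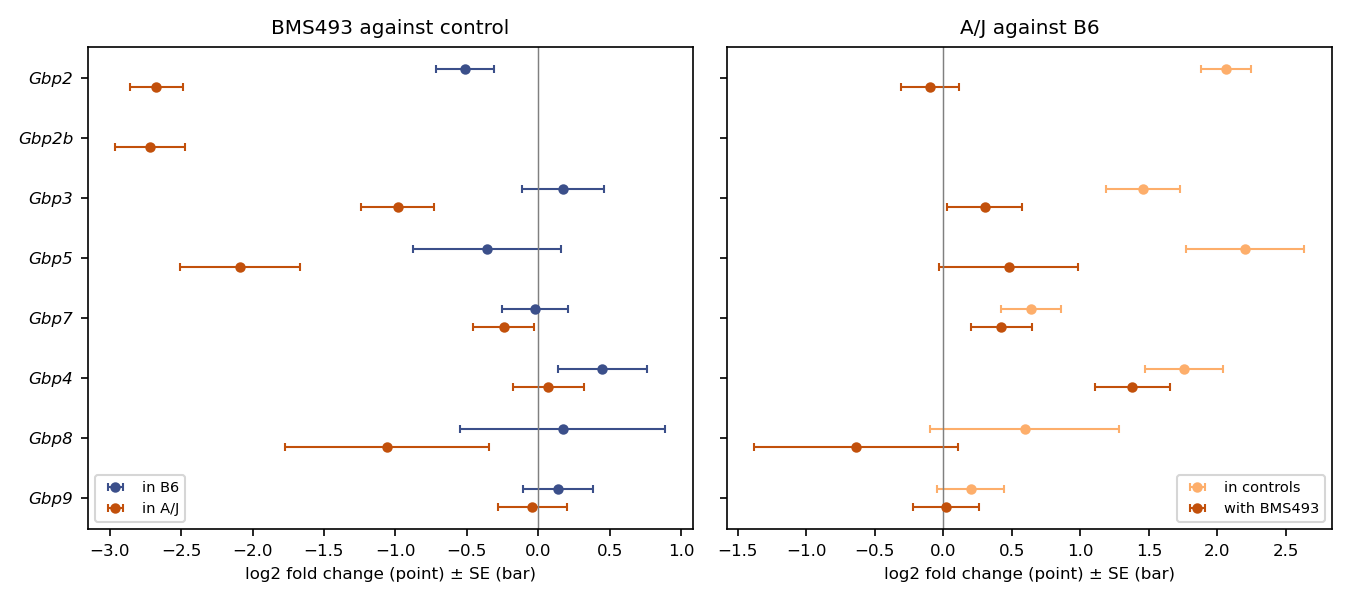
Log2 fold changes (points) with SE (bars) for BMS493 against control in each strain (left) and for A/J against B6 at each treatment (right). Gbp2 was at -2.67 with BMS493 in A/J and at -0.51 in B6, and Gbp2b is drawn only for A/J because B6 held 3 counts of it in all.

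Library numbers in the labels run from 1 to 16, with replicates 1 and 2 of each group in numbers 1 to 8 and replicates 3 and 4 in numbers 9 to 16. Within these sets the log2 ratio of BMS493 to control means in A/J was -2.42 and -2.95 for Gbp2, -2.79 and -2.65 for Gbp2b, -1.62 and -2.65 for Gbp5, and -0.94 and -1.04 for Gbp3. The genes were selected on both sets, so these values are a description. Strain ratios in controls were less even for Gbp4, at 2.58 and 1.10, and for Gbp7, at 1.10 and 0.20. Gbp8 gave 0.65 and -2.73 for BMS493 in A/J, opposite in sign. Within B6 with BMS493, replicate 2 was the highest of the 4 libraries for Gbp2, Gbp3, Gbp5, Gbp7 and Gbp9, and the coefficient of variation of Gbp9 there was 40.7%, where counting error alone gives 9.30%.

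Counts of the family could be affected by shared sequence. The share of 50-base transcript windows that also occur in another gene was 3.75% for Gbp3, 7.78% for Gbp4, 1.44% for Gbp5, 12.7% for Gbp7, 18.1% for Gbp8 and 8.05% for Gbp9, and these values of Gbp7 and Gbp8 leave their counts the less certain. The exons of Gbp4, Gbp8 and Gbp9 overlap each other over 0.814% to 1.77% of their bases. Mir6381 lies within Gbp2 on the opposite strand, over 0.954% of its exon bases. The pair of stranded count columns summed to 118% of the unstranded column for Gbp2 and to 100% for each of the other 7 genes. Gbp2 had 1340 counts in the unstranded column and 828 and 757 in the stranded columns. Its levels given here thus rest on fewer reads than the stranded columns hold, and the cause was not tested.

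The other family members, Gbp6, Gbp10 and Gbp11 on chromosome 5, did not pass the filter on low counts. Gbp6 had 32 counts over the B6 controls and 0 over the A/J controls, so it was at least 11.25-fold higher in B6, the opposite direction to the 6 genes above. With BMS493 it had 19 counts in B6 and 1 in A/J, a ratio of 21.5 with a 95% Clopper-Pearson interval of 3.41 to 891. Gbp6 shares 70.7% of its 50-base windows with other genes and Gbp10 84.1%, so these counts are uncertain. Over all 16 libraries Gbp10 had 24 counts and Gbp11 had 84.

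The genes that flank the family were compared next, with adjusted p-values from edgeR's quasi-likelihood test over all genes. Kyat3, which encodes a kynurenine aminotransferase and follows Gbp2 directly, was at 19.7 CPM in A/J controls and 13.8 CPM in treated A/J lungs (means, n = 4 each). It fell by 0.52 on the log2 scale (SE 0.12, edgeR adjusted p = 0.0363), with no overlap between the groups. This call was lost in 12 of 25 alternatives, with an adjusted p of up to 0.185 without A/J BMS493 replicate 2. Kyat3 was also higher in A/J than in B6, by 0.73 in controls (SE 0.12, edgeR adjusted p = 6.09e-05) and by 0.51 with BMS493 (SE 0.12, edgeR adjusted p = 0.00389). Pdlim5, a PDZ and LIM domain scaffold gene on the far side of Gbp5, was lower in A/J, by log2 fold changes of -0.41 in controls and -0.50 with BMS493 (edgeR adjusted p = 0.00671 and 0.00117). Gtf2b, the gene of general transcription factor IIB, and Pkn2, a protein kinase gene, lie beyond Kyat3 and were not called in any contrast. Their log2 fold changes with BMS493 in A/J were -0.01 (SE 0.08) and 0.002 (SE 0.06).

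Beside the chromosome 5 cluster, Abcg3, an ABC transporter gene, was lower in treated A/J than in treated B6 lungs (log2 fold change -1.22, SE 0.38, edgeR adjusted p = 0.0244) and not called otherwise. This call was lost in 5 of 25 alternatives, among them without B6 BMS493 replicate 2 or A/J BMS493 replicate 1, 2 or 4 (adjusted p up to 0.162). Zfp951, a zinc finger gene, was not called in any contrast.

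**Figure D4:**
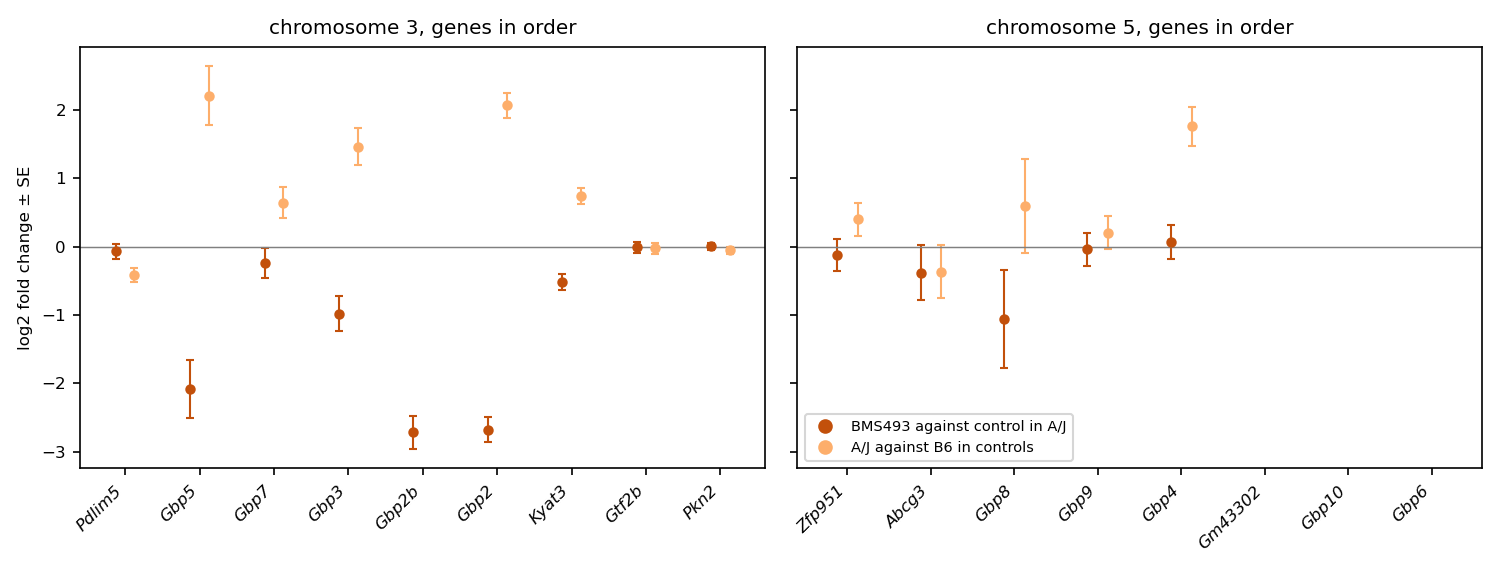
Log2 fold changes (points) with SE (bars) along the gene order of chromosome 3 (left) and chromosome 5 (right), for BMS493 against control in A/J and A/J against B6 in controls; the x axis gives order, not distance. Gbp5, Gbp3, Gbp2b and Gbp2 were lower with BMS493 than Gbp7 between them, Gbp2b has no strain value because B6 controls held 3 counts, and genes without points were not tested.

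The interferon pathway around the family was read from lists of 81 other genes, 52 of which passed the filter on low counts. Of the ligands, Ifng, the gene of interferon-gamma, and Ifnb1, the gene of interferon-beta, had 0 counts in all 16 libraries, where 0 allows up to 3 counts. Of the 12 listed ligand and cytokine genes 1 passed the filter on low counts, Il18, the gene of a cytokine that induces interferon-gamma, at a mean of 1.71 CPM. With BMS493, 0 of the 52 genes were called by edgeR in A/J, where 84 of all 17276 genes tested were called. An unadjusted p under 0.05 was found for 4 of the 52 (Irf2, Irf8, Serping1 and Socs1) and for 1076 of all genes. DESeq2 called 1 of the 52 in A/J, Serping1. In B6, 0 of 52 were called by edgeR, where 0.423% of all genes were called, and 0 by DESeq2. There 5 of the 52 and 1573 of all genes had an unadjusted p under 0.05. With so few genes called in either strain, a count of 0 does not set the list apart. The log2 fold changes in A/J ran from -0.49 to 0.43 with a median of -0.01.

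Of the transcription factors that act on interferon-induced genes, Irf1 was at 11.01 ± 0.227 CPM in A/J controls and 10.2 ± 0.997 CPM after BMS493 (log2 fold change -0.11, SE 0.12). Irf9 was at 13.99 ± 0.600 and 13.9 ± 1.65 CPM (log2 fold change -0.01, SE 0.12), each with n = 4 and its SD. The ranges of the groups overlapped for both genes. Irf2, the gene of a factor that can repress interferon-induced genes, was at 18.1 to 20.3 CPM in A/J controls and 21.6 to 24.9 CPM after BMS493, without overlap (log2 fold change 0.26, SE 0.11, edgeR adjusted p = 0.68). Irf8, the gene of a factor of the macrophage lineage, was at 6.13 to 7.91 CPM and 4.00 to 6.12 CPM, also without overlap (log2 fold change -0.42, SE 0.17, edgeR adjusted p = 0.64). Of all 17276 genes tested 84 were called with BMS493 in A/J by edgeR. Among the 7 immunity-related GTPases tested, which act on the same vacuoles, 0 were. The most abundant, Iigp1, was at 47.3 ± 2.79 CPM in controls and 50.1 ± 3.59 CPM with BMS493 in A/J.

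In controls 10 of 52 genes were called, 9 lower in A/J and 1 higher, where 9.84% of all genes tested were called lower and 7.04% higher. Lower were Iigp1 (log2 fold change -0.64, SE 0.08, edgeR adjusted p = 7.71e-07) and Ifngr1, a chain of the interferon-gamma receptor (-0.40, SE 0.08, edgeR adjusted p = 0.00115). So were the antigen processing genes Tap1 (-0.78), Tap2 (-0.96) and B2m (-0.57), the inflammasome adaptor gene Pycard (-0.94), the complement inhibitor gene Serping1 (-0.35, edgeR adjusted p = 0.0672 with the first stranded column), Stat3 (-0.23) and Rela (-0.22). Stat3 was called in 16 and Rela in 17 of 25 alternatives, with edgeR adjusted p-values of up to 0.187 and 0.129. Without any 1 of B6 control replicates 1, 2 and 4 or A/J control replicates 2 and 4 both calls were lost, that of Stat3 also without A/J control replicate 3 or A/J BMS493 replicate 1 or 4, and that of Rela also without A/J control replicate 1 or B6 control replicate 3. Stat2, the gene of a transcription factor activated by type I interferon, was higher (0.31, SE 0.08, edgeR adjusted p = 0.00714, and 0.131 with the second stranded column). The median of the 52 genes was -0.16, beside 0.008 for all genes tested.

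With BMS493, 14 of 52 genes were called between the strains, 12 lower in A/J and 2 higher, where 20.0% of all genes tested were called in either direction and 7.93% higher. The largest difference among them was Psmb8, an immunoproteasome gene (-2.11, SE 0.54, edgeR adjusted p = 0.0059, and 0.0529 without B6 BMS493 replicate 2), followed by Tap2 (-1.43) and Tap1 (-1.17). Irf1 was lower as well (-0.37, SE 0.12, edgeR adjusted p = 0.0302), a call lost in 6 of 25 alternatives, among them without B6 BMS493 replicate 2 or A/J BMS493 replicate 3 or 4 (adjusted p up to 0.201). The higher genes were Stat2 (0.30, edgeR adjusted p up to 0.0608, with the first stranded column) and Aim2, a DNA-sensing inflammasome receptor gene (0.89, SE 0.25, edgeR adjusted p = 0.0109, and 0.129 with the second stranded column). For the difference between strains in the BMS493 effect, 0 of 52 genes were called by edgeR (1 with an unadjusted p under 0.05, Socs1) and 0 by DESeq2. Over all 17276 genes tested edgeR called 1.

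Retinoic acid target genes served as a readout of the treatment, 7 of 8 of them tested. In A/J, 4 fell with BMS493 (Lrat, Cyp26b1, Dhrs3 and Rarb), and in B6 5 did (those 4 and Stra6). Rarb, the gene of a retinoic acid receptor, was at 9.09 ± 0.967 CPM in A/J controls and 3.10 ± 0.624 with BMS493 (log2 fold change -1.56, SE 0.21, edgeR adjusted p = 9.11e-05). In B6 it was at 8.38 ± 0.759 and 4.19 ± 1.82 CPM (-1.02, SE 0.20, edgeR adjusted p = 0.019). The call of Rarb in B6 was lost in 6 of 25 alternatives, without any 1 of the 4 B6 controls, without B6 BMS493 replicate 2 and with only the libraries compared (edgeR adjusted p up to 0.144). That of Stra6 in B6 (-1.15, SE 0.24, edgeR adjusted p = 0.0268) was lost in 9 of 25, those settings and also without B6 BMS493 replicate 3, with the replicate block and with the first stranded column (adjusted p up to 0.142). In controls Lrat was higher in A/J than in B6, by 3.57 (SE 0.21, edgeR adjusted p = 1.67e-12).

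**Figure D5:**
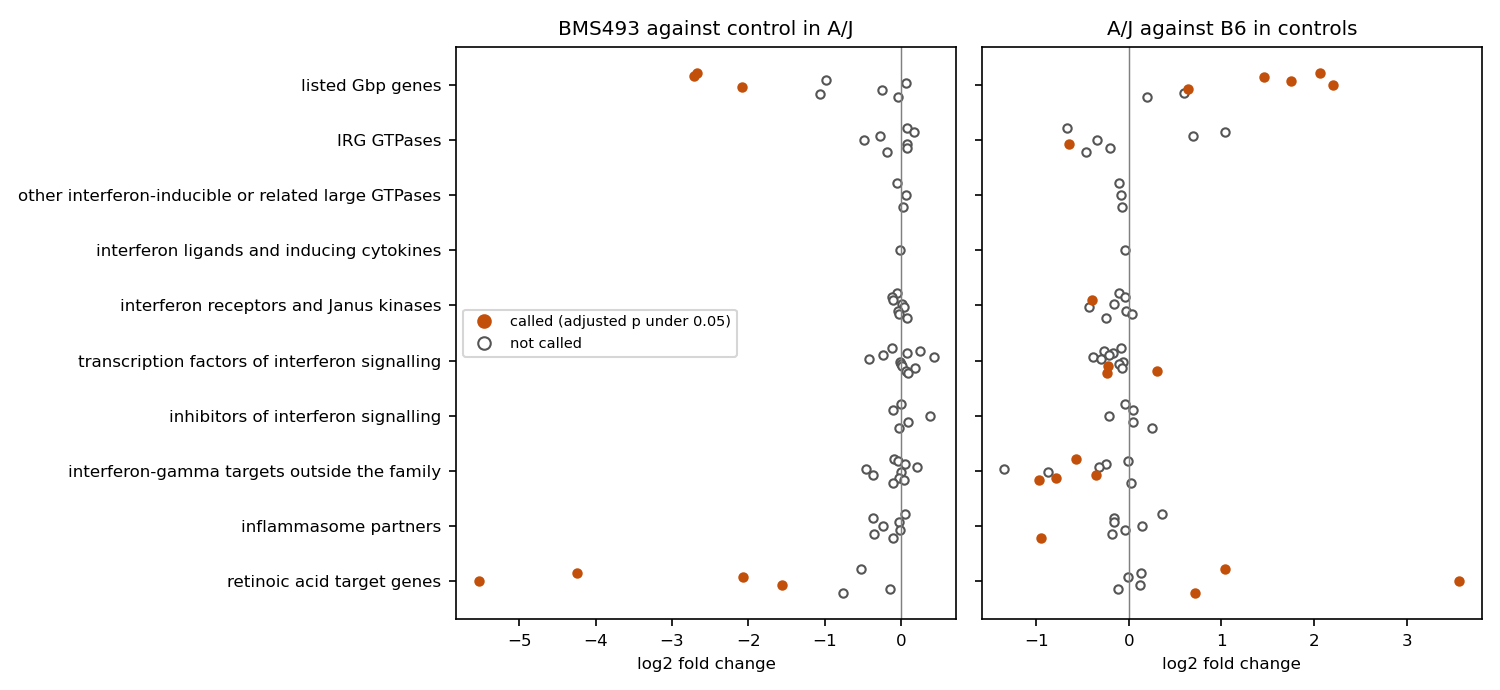
Log2 fold changes (x axis) of each tested gene of the 8 listed Gbp genes and of the pathway lists (rows), for BMS493 against control in A/J (left) and A/J against B6 in controls (right); filled points were called, and Gbp2b is left out on the right. Of all 17276 genes tested 84 were called in the contrast on the left, and beyond the Gbp genes and the retinoic acid targets 0 of those drawn were.

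Over the 16 libraries, the protein-coding genes outside the family whose log2 CPM was most like that of Gbp2 were Lrat (Pearson r 0.948), Neto1 (0.870), Resf1 (0.868), Asb4 (0.861) and Slc14a1 (0.857), out of 14146 genes compared. Lrat, the gene of lecithin retinol acyltransferase, was at 16.5 ± 1.87 CPM in A/J controls, 0.355 ± 0.181 in treated A/J, 1.38 ± 0.410 in B6 controls and 0.248 ± 0.0902 in B6 with BMS493 (SD, n = 4 each). The genes most like Gbp2b were A530016L24Rik (0.945), Xpnpep1, Ulk4 (0.943 each), Pcm1 and Slc22a29 (0.936 each). For Gbp9 the highest values were Dock9 (0.765), D7Ertd443e (0.757), Cdkn2aip (0.750), Hook1 (0.745) and Junb (0.728). Within the family r was 0.867 for Gbp2 with Gbp5, 0.740 for Gbp2 with Gbp2b, 0.806 for Gbp2b with Gbp4 and 0.156 for Gbp2 with Gbp9. The 16 points share strain, treatment and library, so these values describe the groups as much as the libraries within them.

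Markers of cell types that could carry the family were read beside these results. Over all 17276 genes tested edgeR called 73 with BMS493 in B6 and 84 in A/J. Of 10 macrophage genes it called 0 in either strain. Their summed level was 161.5 to 173.8 CPM in A/J controls and 154.9 to 169.0 CPM in treated A/J. Of 13 lymphoid genes 3 were tested and 0 called, with a summed level of 5.62 to 9.84 CPM in A/J controls and 5.07 to 9.24 CPM with BMS493, and Cd3e and Ncr1 had 0 counts in all libraries. Of 4 mast cell genes tested, 3 rose with BMS493 in A/J, the protease genes Cma1 (4.11-fold), Cpa3 (2.93-fold) and Tpsb2 (2.84-fold), with edgeR adjusted p-values of 0.00281, 0.0032 and 0.033. The list's summed level was 59.4 to 72.2 CPM in controls and 61.9 to 68.2 CPM with BMS493, most of it Kit, at a mean of 62.9 and 50.6 CPM. Between strains, 5 of 7 endothelium, 3 of 6 lung epithelium, 2 of 6 lung mesenchyme, 1 of 3 smooth muscle and 1 of 4 mast cell genes tested (Kit, log2 fold change -0.51, edgeR adjusted p = 0.00366) were called lower in A/J controls, beside 9.84% of all genes, with summed endothelium levels of 870.5 to 1051 CPM in A/J and 1209 to 1323 CPM in B6. Summed mesenchyme levels were 2314 to 3138 CPM in A/J and 3969 to 4179 CPM in B6 controls, and summed smooth muscle levels 672.5 to 845.8 and 878.1 to 935.4 CPM, both without overlap. Most of the mesenchyme sum was Col1a1, at means of 1848 CPM in A/J and 3113 CPM in B6 controls. Tcf21 was also called lower, while Foxf1, Pdgfra, Tbx4 and Tbx5 were not called. The smooth muscle gap lay in Acta2 (458 and 583 CPM), since Myh11 (297 and 296) and Cnn1 (38.0 and 38.6) were alike. Epithelium sums of 702.6 to 869.2 CPM in A/J and 1041 to 1207 CPM in B6 controls, and mast cell sums of 59.4 to 72.2 and 89.9 to 101.2 CPM, did not overlap either. The widest gaps in these were those of Sftpc, at means of 81.1 and 280.9 CPM, and of Kit, at 62.9 and 90.0 CPM. Of the macrophage genes, Mrc1 was 1.59-fold higher (edgeR adjusted p = 3.03e-06) and C1qb 1.31-fold lower (edgeR adjusted p = 0.0423) in A/J controls, and the summed macrophage level in B6 controls was 153.6 to 174.9 CPM. Also higher in A/J controls were Wt1, 1 of 4 mesothelium genes (1.68-fold, edgeR adjusted p = 0.00179), and 2 of 5 erythroid genes, Hbb-bh1 (1.99-fold) and Hbb-y (2.02-fold), with edgeR adjusted p-values of 0.00653 and 0.0251. Summed mesothelium levels were 89.8 to 104.9 CPM in A/J and 77.9 to 83.7 CPM in B6 controls, and summed erythroid levels 558.2 to 919.3 and 354.1 to 458.6 CPM. Most of the erythroid sum was Hbb-y, at means of 671.6 and 332.4 CPM. With BMS493 in A/J the mesothelium sum was 74.1 to 85.3 CPM, below every A/J control, and 0 of its 4 genes were called by edgeR (2 with an unadjusted p under 0.05, Upk3b and Wt1, the latter with a log2 change of -0.40, SE 0.16 and adjusted p = 0.572). Levels summed over each of the other 9 lists overlapped between A/J controls and treated A/J lungs. Between strains with BMS493, 20.0% of all genes tested were called in either direction and 7.93% were called higher in A/J. Of the markers tested, 7 of 7 endothelium, 4 of 6 epithelium, 2 of 6 mesenchyme and 1 of 3 smooth muscle genes were called lower in A/J. Pdgfra (mesenchyme), Mpo (neutrophil) and Hbb-bh1 (erythroid) were called higher. Among mast cell genes Cpa3 and Tpsb2 were called higher and Kit lower. Among mesothelium genes Wt1 and Upk3b were called higher and Msln lower. Of the 10 macrophage genes 3 were called higher and 2 lower, with summed levels of 154.9 to 169.0 CPM in A/J and 133.5 to 177.3 CPM in B6. The part of cell makeup in the levels of the Gbp genes was not tested.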

How the data were processed

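Poly(A) RNA of 16 lung samples was sequenced, and the authors deposited raw counts per gene for each library, 1 column regardless of strand and 1 for each strand. Per the submitters' processing notes FastQC, cutadapt and STAR were used with GRCm39. Versions and parameters are not given in the sources used here. The column regardless of strand was used, because the first stranded column held 51.0% to 52.0% of the stranded counts. The 4 summary lines that name no gene stayed out of all fits and sizes. Names, exon lengths and gene order came from GENCODE M21 (GRCm38), which matched 51884 identifiers holding 98.9% of the counts, and no coordinates were carried between builds. Promoter sequences are those of RefSeq GRCm38.p6.

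Counts were filtered with filterByExpr, scaled by TMM and fitted with the robust quasi-likelihood model of edgeR 4.0.16 in R 4.3.3, with 1 coefficient per group and all 16 libraries. P-values were two-sided and adjusted by the Benjamini-Hochberg method over 17276 genes. Genes with an adjusted p under 0.05 are the called genes. With total gene counts of 15207539 to 24146224 per library, the precision of low levels is set by their few counts. Correlations used log2 CPM with a prior count of 2. The script was tested on simulated data.

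The labels do not say that libraries of a group came from separate litters, so p-values measure the spread between these samples. Members and gene lists were chosen with earlier results of these data known. Named genes were the 8 members, pathway genes called in any contrast, a few fixed regulators, other Gbp genes, protein-coding neighbours within 250 kb in M21, and the 5 genes most alike to Gbp2, Gbp2b and Gbp9. Of the pathway lists, Gvin2 and Gvin3 were not matched, and the values of 1 regulator are not reported here.

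Alternatives were DESeq2 1.42.0 (Wald test), RLE scaling in edgeR, no filter or one at a mean CPM of 1, a fit to the compared libraries alone, a replicate block, a term for library numbers 1 to 8 against 9 to 16, either stranded column, and leave-one-out fits.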

Additional observations from a re-analysis of the deposited data

Results flagged for a closer look

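Gbp8 in A/J control replicate 4 stood apart from its group, at 1.53 CPM against 0.241, 0.260 and 0.319 CPM in the other replicates. Its gap to the nearest library was 0.940 of the group's range, above Dixon's 95% critical value for 4 libraries. It was the 1 case in 31 groups of the 8 genes, where chance gives about 1 in 20. The library held 27 Gbp8 counts and the others 5, 6 and 7.

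The effect of BMS493 on Gbp2 differed between the strains, by -2.16 on the log2 scale (SE 0.28, A/J minus B6). This difference is among the results that led to the choice of the genes and is given as a description.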

How the results depend on the processing

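Of 917 fold changes of the 8 genes under alternatives, 893 moved by less than 1 SD, 24 by more, and 0 called ones reversed. Gbp2 and Gbp2b remained called with BMS493 in A/J under all 25 alternatives, and Gbp2 in the difference between strains under all 24 run. The number of the 8 genes called ranged over the leave-one-out fits from 2 to 4 for BMS493 in A/J, 5 to 6 between strains in controls and 2 to 3 between strains with BMS493. With the filter at a mean CPM of 1, which drops genes, it was 2 and 5 in the first and second of these. Of 59 pathway genes including retinoic acid targets, 5 were called for BMS493 in B6 and 3 with only the libraries compared (3 to 5 leave-one-out). Between strains with BMS493 17 were called and 11 with only the libraries compared (12 to 23 leave-one-out). For the difference between strains in the BMS493 effect 0 were called, and 1 by DESeq2 and 1 without the filter (0 to 1 leave-one-out). The count over all genes moved from 73 to between 27 and 260 for BMS493 in B6, from 84 to between 52 and 178 in A/J and from 1 to between 1 and 12 for their difference. The causes of these changes were not tested. Deviations of same-numbered libraries had a median correlation of -0.009 (-0.147 to 0.148 over 24 pairs), and those of others 0.005. A pairing by replicate number was thus not seen, which cannot show that same-numbered libraries were handled apart. With the replicate number as a block, 0 of the 8 genes were called for BMS493 in B6, 3 in A/J, 1 for their difference, 6 between strains in controls and 2 with BMS493, and of the pathway genes 4, 4, 0, 13 and 17. Depth limits Gbp8 (0 to 27 counts per library) and Gbp2b in B6 (0 to 2 counts).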
